A study of Mus musculus with 9 samples.

Results

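The 10 genes described here encode the contractile and cytoskeletal proteins by which a myofibroblast is usually recognized, namely Acta2, Tagln, Tagln2, Myl9, Tpm1, Cnn1, Cnn2, Myh11, Des and Vim. They were taken by symbol from the authors' deposited table, which held all 10 of them among its 16755 genes. Of its columns, those used here hold the authors' mean of normalized read counts in each of 3 groups of 3 mice, all of strain C57BL/6 according to the labels and all homozygous for the floxed Scd2 allele. Scd2f/f control mice were untreated, and their age is given only as a range shared by all mice of the study. Scd2f/f mice with tumor-adjacent liver (TAL) had received the hepatocarcinogen diethyl nitrosamine (DEN) once at 2 weeks of age, at 10 mg/kg, and Western alcohol diet (WAD) from 6 weeks of age, for 4 months according to the labels. The methods of the study give a longer feeding. Scd2f/f;CC mice underwent the same regimen and also carried Cre recombinase under the Col1a1 promoter, which is active in activated hepatic stellate cells (aHSC) and portal fibroblasts. The Scd2f/f groups carried no Cre, so that loss of Scd2 and presence of Cre cannot be told apart. The labels name the tissue only as liver, and the study's text describes the treated tissue both as TAL and as non-tumor liver. Only these group means were used, and single-mouse values were not analysed here. Hence no spread between mice, no test and no p-value stands behind any difference below, and the depth of the libraries is unknown.

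Quiescent stellate cells store vitamin A between hepatocytes and the sinusoidal endothelium. On injury they turn into myofibroblasts that assemble actin stress fibers, contract and deposit collagen, and smooth muscle actin (ACTA2) is the classical marker of that state. The same contractile proteins are also the constitutive equipment of vascular smooth muscle around portal vessels, where MYH11 and CNN1 mark the fully differentiated muscle cell. TAGLN2, CNN2 and VIM, by contrast, occur in many non-muscle cells, leukocytes and endothelium included. Transcription of muscle-type contractile genes is driven by serum response factor (SRF), which binds the CArG box, and TEAD factors, the DNA-binding partners of YAP1, bind a short motif that also occurs in several contractile gene promoters. In bulk tissue, fewer cells of a type and less RNA per cell cannot be told apart.

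The genes showed 2 patterns. The smooth muscle-type genes Acta2, Tagln, Cnn1, Myh11 and Myl9, together with Des and Tpm1, had a lower mean in Scd2f/f TAL than in control liver, whereas the broadly expressed Tagln2, Cnn2 and Vim had a higher one. From Scd2f/f TAL to Scd2f/f;CC TAL, 9 of the 10 genes had a lower mean and Myh11 a higher one, although the means of Myl9 were nearly equal and that of Cnn1 was the lowest value of its column. The means of Vim and Tagln2 in Scd2f/f;CC TAL thus lay near those of control liver and that of Cnn2 between those of the Scd2f/f groups, while those of Acta2, Tagln, Des and Tpm1 lay below both Scd2f/f groups.

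**Figure D1:**
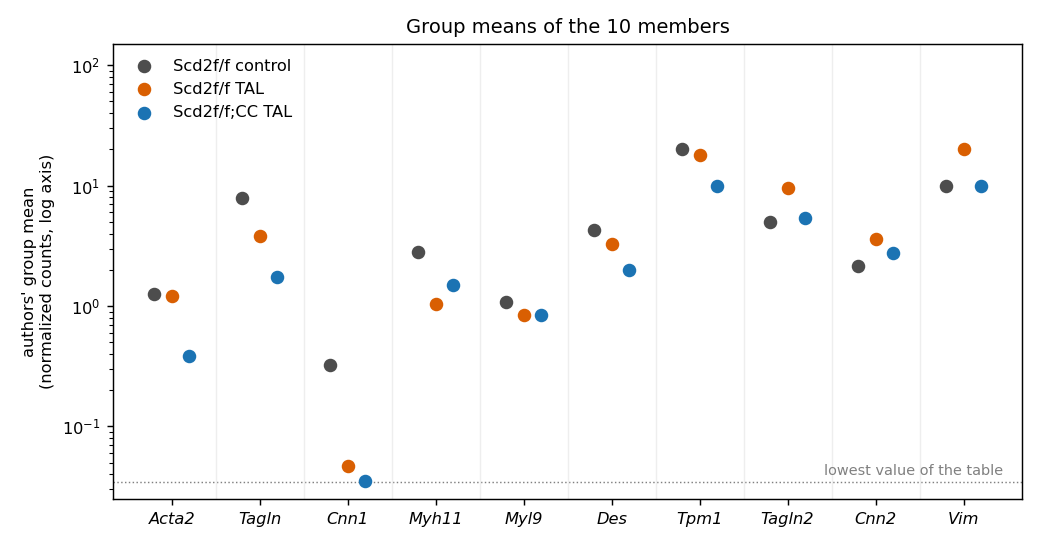
The authors' group mean of each gene, in normalized counts on a log axis, for Scd2f/f control liver, Scd2f/f TAL and Scd2f/f;CC TAL, with 1 point per group and no error, since values of single mice were not analysed. The means run from 20.2 for Tpm1 in control liver to 0.0349 for Cnn1 in Scd2f/f;CC TAL, beside the dotted line at the lowest value of the table.

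None of these genes was abundant in whole liver. Tpm1, a tropomyosin that lines actin filaments, had the highest mean over the groups, 16.0 normalized counts, and 75.5% of the genes of the table had a lower one. Vim followed at 13.3 and Tagln2 at 6.64. Acta2 averaged 0.953 and Myl9 0.923 over the groups, levels below which 29.0% and 28.5% of the genes lay. Cnn1 averaged 0.135. With these 3 genes under a mean of 1, the other 7 were among the 11784 genes averaging 1 normalized count or more over the groups, which serve below as the background. For comparison between genes, each mean was divided by the length of the gene's exons, since a longer transcript yields more reads. In control liver Tagln was then the highest of the 10, at 3.95 normalized counts per kb of exon, followed by Tpm1 at 3.11, Tagln2 at 2.39, Vim at 2.10 and Des at 1.13. Below 1 normalized count per kb were Myl9 at 0.929, Cnn2 at 0.870, Acta2 at 0.578, Myh11 at 0.367 and Cnn1 at 0.118. In Scd2f/f TAL the order began with Tagln2 at 4.58 and Vim at 4.24 normalized counts per kb, ahead of Tpm1 at 2.76 and Tagln at 1.91. In Scd2f/f;CC TAL, Tagln2 at 2.6 and Vim at 2.07 were ahead of Tpm1 at 1.53 and Cnn2 at 1.11, and Tagln came next at 0.880. Without a spread, it cannot be said which neighbors in these orders differ.

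The promoters of these genes were searched for both motifs, since several of the genes are textbook SRF targets. RefSeq start-site windows on GRCm38.p6, from 250 bases before to 50 after the start, were matched for 8 of the 10 genes, all but Tagln and Myh11. The full 10-letter CArG box occurred in 2 of the 8 windows and in 1.63% of all 32851 windows searched, and a CArG box with 1 of its inner letters off in 2 of 8 against 8.5%. The TEAD motif CATTCC, read on both strands, occurred in 3 of 8 windows and in 14.7% of all. Shown 5′ to 3′ are the 250 bases before the start of 4 genes, with matches in capitals. They were picked to cover both motifs and both patterns of expression: Acta2 (chr19:34255374-34255623, minus strand) and Myl9 (chr2:156775214-156775463, plus strand) of the muscle type, Tagln2 (chr1:172499996-172500245, plus strand) and Cnn2 (chr10:79988350-79988599, plus strand) of the broad type.
Acta2: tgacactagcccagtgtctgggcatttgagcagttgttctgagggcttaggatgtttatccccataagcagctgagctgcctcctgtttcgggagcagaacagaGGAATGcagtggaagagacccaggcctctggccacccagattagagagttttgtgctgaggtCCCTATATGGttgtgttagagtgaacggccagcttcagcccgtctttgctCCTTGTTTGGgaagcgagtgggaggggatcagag
Myl9: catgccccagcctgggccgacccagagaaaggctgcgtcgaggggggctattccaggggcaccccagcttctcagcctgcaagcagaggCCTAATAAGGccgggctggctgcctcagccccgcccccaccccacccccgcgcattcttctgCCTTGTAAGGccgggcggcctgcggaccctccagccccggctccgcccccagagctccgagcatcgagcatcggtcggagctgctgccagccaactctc
Cnn2: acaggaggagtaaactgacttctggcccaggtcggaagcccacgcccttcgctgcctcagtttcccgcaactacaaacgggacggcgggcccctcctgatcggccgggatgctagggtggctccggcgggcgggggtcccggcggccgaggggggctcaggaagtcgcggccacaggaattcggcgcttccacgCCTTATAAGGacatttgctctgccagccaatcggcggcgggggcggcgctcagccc
Tagln2: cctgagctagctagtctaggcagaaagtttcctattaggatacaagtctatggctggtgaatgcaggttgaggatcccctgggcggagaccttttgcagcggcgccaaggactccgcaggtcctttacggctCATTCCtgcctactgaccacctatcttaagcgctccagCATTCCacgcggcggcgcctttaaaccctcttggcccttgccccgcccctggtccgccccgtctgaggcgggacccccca

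In the Acta2 sequence the capitals mark, from left to right, a TEAD motif on the opposite strand from -146 to -141 and CArG boxes with 1 letter off from -84 to -75 and from -34 to -25, where -1 is the base before the start. The Myl9 sequence holds a full CArG box from -161 to -152 and 1 with a letter off from -99 to -90. The Cnn2 sequence holds a full CArG box from -56 to -47, and the Tagln2 sequence a TEAD motif from -118 to -113 and another from -80 to -75. The RefSeq starts of Tagln2, Myl9 and Cnn2 lie inside the gene as the authors' table places it, so that the printed windows overlap it, and both Tagln2 matches lie within that overlap. Tpm1 had a TEAD motif on the opposite strand from -56 to -51, and no match was found in the windows of Cnn1, Des and Vim. The RefSeq starts of Tpm1, Cnn1 and Vim also lie inside the gene as the authors' table places it. The Tpm1 match and all 250 bases before the Vim start fall within it. Thus, the full CArG box was shared by Myl9, with nearly equal means in both treated groups, and by Cnn2, which followed the other pattern. The matches are letters in a short window and say nothing of binding.

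**Figure D2:**
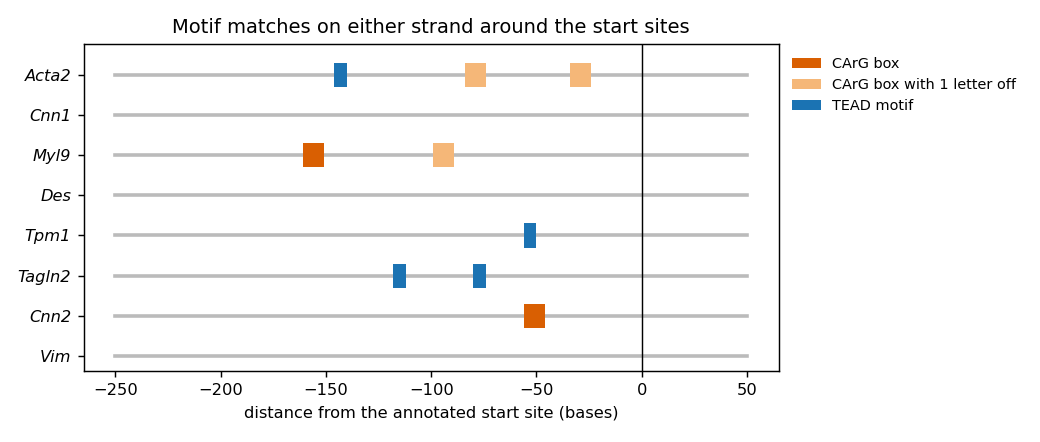
Positions of CArG boxes (dark orange), CArG boxes with 1 letter off (light orange) and TEAD motifs (blue) on either strand, by distance in bases from the annotated start of 8 genes. Full CArG boxes lie before Myl9 and Cnn2 only, and the TEAD motif before Acta2, Tpm1 and Tagln2.

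The regimen itself was addressed by comparing Scd2f/f TAL with control liver. The muscle-type genes spanned the lower side. Myh11 (chr16:14194527-14291409), the smooth muscle myosin heavy chain, had a mean of 2.79 in control liver and 1.04 in Scd2f/f TAL, a ratio of 0.373 and 2.68-fold lower. Tagln (chr9:45929619-45936059), which encodes the actin-bundling protein transgelin or SM22, had means of 7.85 and 3.79, a ratio of 0.483. Only 1.37% of the genes averaging 1 or more had a ratio below that of Myh11, and 2.61% a ratio below that of Tagln. Cnn1 (chr9:22099216-22109631), a calponin that restrains the myosin ATPase in smooth muscle, had means of 0.324 and 0.0465. The latter lies close to the lowest value of the Scd2f/f TAL column, 0.0348, which 107 genes share, so that the size of the Cnn1 difference is not interpretable beyond its direction.

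The remaining genes of that side differed little. Acta2 (chr19:34241090-34255337) had a mean of 1.27 in control liver and 1.20 in Scd2f/f TAL, a ratio of 0.945, and thus the classical activation marker was no higher in TAL. Its log2 ratio of -0.08 lay close to the median of 0.03 over all genes averaging 1 or more. Tpm1 (chr9:67022590-67049407) had means of 20.2 and 17.9, Des (chr1:75360329-75368580), the muscle intermediate filament that in rodent liver also marks stellate cells, means of 4.25 and 3.29, and Myl9 (chr2:156775420-156781659), a regulatory light chain of myosin, means of 1.08 and 0.85. These correspond to ratios of 0.886 for Tpm1, 0.774 for Des and 0.787 for Myl9, all inside the middle 80% of genes averaging 1 or more, which spanned log2 ratios from -0.54 to 0.71.

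On the higher side, Vim (chr2:13573927-13582827), the intermediate filament of mesenchymal cells and leukocytes, had a mean of 9.94 in control liver and 20.1 in Scd2f/f TAL. The ratio was 2.02, and 93.7% of genes averaging 1 or more had a lower ratio. Tagln2 (chr1:172500047-172507381), the non-muscle transgelin, had means of 4.97 and 9.53, a ratio of 1.92. Cnn2 (chr10:79988584-79996063), the non-muscle calponin, had means of 2.14 and 3.59, a ratio of 1.68. All 3 log2 ratios, 1.02 for Vim, 0.94 for Tagln2 and 0.75 for Cnn2, lay above the middle 80% of genes averaging 1 or more. Over all 16755 genes, where that span reached 0.95, only Vim lay above it.

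With a limit of 2-fold, 1 of the 7 genes averaging 1 or more was past it on the higher side (Vim), where 6.4% of all such genes were, and 2 of 7 on the lower side (Tagln and Myh11), where 2.89% were. Without a limit on the mean, 1 of 10 was past it on the higher side against 9.37% of all genes, and 3 of 10 on the lower side against 4.69%, Cnn1 being the addition. The median log2 ratio of the 10 genes was -0.26, against 0.04 for all 16755 genes, but it summarizes a group with ratios on both sides. With a pseudocount of 1 the median was -0.17 and 0 of 7 genes were past the limit. Vim passed the limit narrowly. Its ratio could lie between 2.02 and 2.03 from the rounding of the means alone, and its log2 ratio was 0.99 when the median of genes averaging 1 or more was subtracted.

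**Figure D3:**
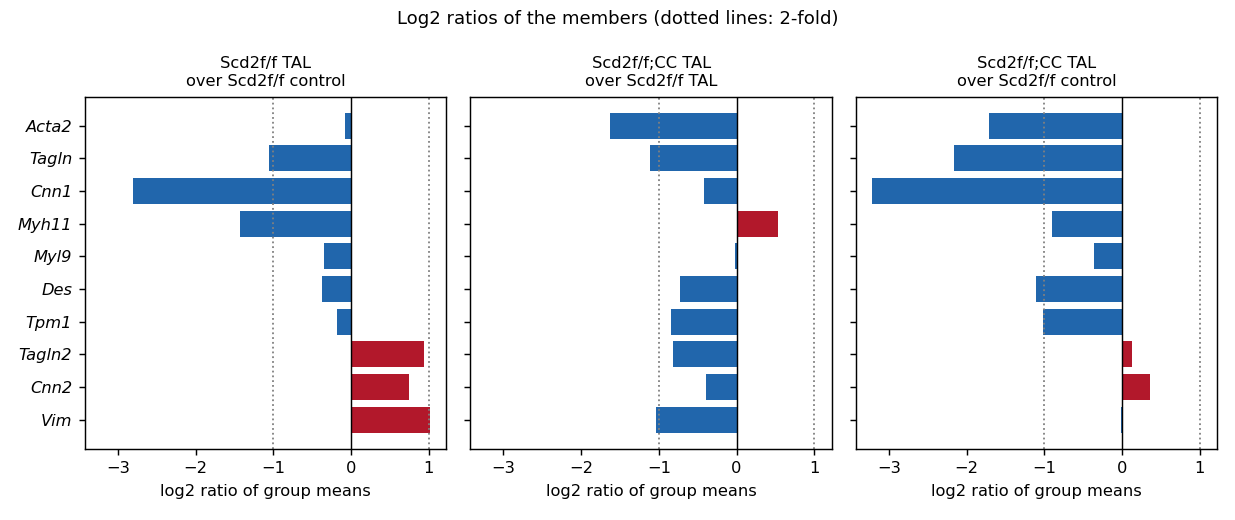
Log2 ratios of the authors' group means for the 10 genes in 3 comparisons, with red bars for a higher and blue bars for a lower mean in the group named first, and dotted lines at 2-fold. The bars of Tagln2, Cnn2 and Vim point to the right in the left panel, all bars but that of Myh11 point to the left in the middle panel, and that of Cnn1 rests on values near the lowest of the table.

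The effect of deleting Scd2 in Col1a1-expressing cells was addressed by setting the Cre-carrying mice beside Scd2f/f mice on the same regimen. Below, means are given for Scd2f/f TAL first. As this comparison shares the Scd2f/f TAL mice with the one above, the values of both are not independent of each other. Scd2 itself (chr19:44293676-44306865), a fatty acid desaturase, had means of 6.47 and 1.87, a ratio of 0.289, and 2.46 in control liver. The floxed exon is a part of the counted gene, so that the gene's mean checks the label only in part. On the ratio of the means, Acta2 differed most of the contractile genes, but at a low level. Its means were 1.20 and 0.388, a ratio of 0.323 and 3.09-fold lower. With a pseudocount of 1 its log2 ratio was -0.66, no longer past 2-fold, and it ranked behind Vim at -0.96, Tagln at -0.80, Tpm1 at -0.79 and Tagln2 at -0.71. Of the genes averaging 1 or more, 0.373% had a ratio below it. Tagln had means of 3.79 and 1.75, a ratio of 0.462, and Vim means of 20.1 and 9.83, a ratio of 0.489. Of the genes averaging 1 or more, 1.10% lay below Tagln and 1.37% below Vim.

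Tpm1, Tagln2 and Des came next. Tpm1 had means of 17.9 and 9.95, a ratio of 0.556. Tagln2 had means of 9.53 and 5.42, a ratio of 0.569, and Des means of 3.29 and 1.98, a ratio of 0.602. Their log2 ratios of -0.85, -0.81 and -0.73 were all below -0.37, the lower end of the middle 80% of genes averaging 1 or more. Cnn2, with means of 3.59 and 2.74 and a log2 ratio of -0.39, lay at that end.

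Myl9 and Myh11 did not share this pattern. Myl9 had means of 0.85 and 0.84, a ratio of 0.988, and 45.4% of genes averaging 1 or more, to which Myl9 does not belong, lay below it. Myh11 had means of 1.04 and 1.5, a ratio of 1.44, and 97.0% of those genes lay below it. For Cnn1 no ratio is given, since its mean in Scd2f/f;CC TAL, 0.0349, is the lowest value of that column, which 151 genes share.

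On the lower side, 2 of the 7 genes averaging 1 or more were past 2-fold (Vim and Tagln), against 1.54% of all such genes, and 3 of 10 without a limit on the mean, with Acta2 added, against 4.07% of all genes. On the higher side 0 of 7 were, against 0.645%, and 0 of 10 without the limit, against 1.82%. The median log2 ratio of the 10 genes was -0.77, where that of all genes was 0.00. Over the 7 averaging 1 or more it was -0.81. Of the 10 genes, 9 had a log2 ratio below 0, as did 49.6% of all genes. These 9 include Myl9, with nearly equal means, and Cnn1, at the lowest value of its column. With a pseudocount of 1 the median was -0.60 and 0 of 7 genes were past the limit.

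Set directly against control liver, Scd2f/f;CC TAL had a lower mean of Acta2, Tagln, Cnn1, Myh11, Myl9, Des and Tpm1. The mean of Tagln was 7.85 in control liver and 1.75 in Scd2f/f;CC TAL, 4.49-fold lower, and that of Acta2 1.27 and 0.388, 3.27-fold lower. Des was 2.15-fold lower, at means of 4.25 and 1.98, and Tpm1 2.03-fold lower, at means of 20.2 and 9.95. Myh11, at means of 2.79 and 1.5, was 1.86-fold lower, and Myl9, at means of 1.08 and 0.84, had a ratio of 0.778. Cnn1 had means of 0.324 and 0.0349, the latter the lowest value of its column. Vim, with means of 9.94 and 9.83, had a ratio of 0.989. Tagln2, with means of 4.97 and 5.42, had a ratio of 1.09, and Cnn2, with means of 2.14 and 2.74, a ratio of 1.28. Past 2-fold on the lower side were 3 of the 7 genes averaging 1 or more (Tagln, Des and Tpm1), against 2.55% of all such genes, and 5 of 10 without that limit, with Acta2 and Cnn1 added, against 4.64%. On the higher side 0 of 7 and 0 of 10 were past it, against 4.51% and 6.41%. The median log2 ratio of the 10 genes was -0.96, against 0.05 for all genes. With a pseudocount of 1 it was -0.48, and 1 of 7 genes was past the limit.

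Related genes of the same protein families were set beside the contractile genes. These pairs were set up after the values had been seen. The transgelins stood in a different order in each Scd2f/f group. Per kb of exon, Tagln2 stood at 0.605 of the level of Tagln in control liver, 2.40 times that level in Scd2f/f TAL, then 2.96 times in Scd2f/f;CC TAL. Vim stood at 1.85 times the per-kb level of Des in control liver, 4.84 times in Scd2f/f TAL, then 3.93 times in Scd2f/f;CC TAL. Myh9, the main non-muscle myosin heavy chain, stood at 26.3 times the per-kb level of Myh11 in control liver, 98.9 times in Scd2f/f TAL, then 54.1 times in Scd2f/f;CC TAL. The cytoplasmic actin Actb stood at 319 times the per-kb level of Acta2 in control liver, 462 times in Scd2f/f TAL, then 1339 times in Scd2f/f;CC TAL. The light chain and tropomyosin pairs varied. Per kb, the myosin light chain gene Myl12a stood at 8.39, 10.9 and 8.11 times the level of Myl9 in control liver, Scd2f/f TAL and Scd2f/f;CC TAL, and its relative Myl12b at 6.49, 12.5 and 9.12 times. Tpm4 stood at 2.23, 2.37 and 3.17 times that of Tpm1. Among the tropomyosins, Tpm2 had a log2 ratio of 0.51 from control liver to Scd2f/f TAL and -1.03 from there to Scd2f/f;CC TAL, while Tpm1 had -0.17 and -0.85. Actins, tropomyosins and myosin chains share long stretches of sequence, and the authors' quantification divides reads between genes by an estimate, so that part of a low gene's count could belong to an abundant relative. For Tagln, 62.4% of its exon bases also lie under exons of Gm48529, a gene on the opposite strand, and the library kit does not keep the strand. Gm48529 was not analysed here.

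Other genes of the contractile program were taken from lists, and their counts are descriptions. Of 12 further genes of the smooth muscle contractile apparatus, all were in the table. Their median log2 ratio was 0.34 in Scd2f/f TAL over control liver, with 9 above 0 and 3 below, and -0.44 in Scd2f/f;CC TAL over Scd2f/f TAL, with 1 above 0 and 11 below. Past 2-fold on the higher side in the first comparison was 1 of the 12, where 9.37% of all genes were, namely Fhl2, an adaptor protein of the LIM family, at means of 0.10 and 0.47. In the second comparison 2 of the 12 were past it on the lower side, where 4.07% of all genes were, Fhl2 again, at a mean of 0.14 in Scd2f/f;CC TAL, and Tpm2 with means of 10.2 and 5. Actg2 and Lmod1, a smooth muscle actin and an actin nucleator, had means under 0.3 in every group. The most abundant of the list, Cald1, encodes caldesmon, and its means were 129 in control liver, 176 in Scd2f/f TAL, then 159 in Scd2f/f;CC TAL.

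The list of non-muscle actomyosin and stress fibers held 20 genes. From control liver to Scd2f/f TAL 18 of them were above 0 and 2 below, with a median log2 ratio of 0.45. From Scd2f/f TAL to Scd2f/f;CC TAL 1 was above 0 and 19 below, with a median of -0.33. Past 2-fold on the higher side in the first comparison were 2 of the 20, against 9.37% of all genes. Tmsb4x, a thymosin that sequesters actin monomers and is abundant in leukocytes, had means of 25.5, 85.2 and 64.3 in control liver, Scd2f/f TAL and Scd2f/f;CC TAL. Its relative Tmsb10 had means of 3.37, 9.59 and 5.07. Tln1, which encodes the integrin-binding protein talin, was the 1 gene of the 20 past 2-fold on the lower side in the second comparison, against 4.07% of all genes, at means of 87.9 and 42.5. Actb, the most abundant, had means of 494, 676 and 634. Among other intermediate filament genes, Nes and Synm, partners of desmin and vimentin, had log2 ratios of -0.25 and -0.10 in the first comparison and 0.12 and -0.66 in the second. Past 2-fold on the lower side in the second comparison were 2 of the 9 genes found, against 4.07% of all genes, both keratins of bile duct epithelium. Krt7 had means of 0.436 and 0.0892, and Krt19 means of 0.751 and 0.204. Both averaged under 1 over the groups, and 0 of the 7 genes averaging 1 or more were past it, against 1.54% of such genes. In the first comparison 1 of the 9 was past 2-fold on the lower side, against 4.69% of all genes. It was Krt18, with means of 216, 90.5 and 72.4. The list as a whole had medians of -0.25 and -0.36 over the 9 genes found of 10, and its most abundant gene was the hepatocyte keratin Krt8, with means of 273, 138 and 106.

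Genes of the transcription factors that bind these motifs, and of their partners, were also measured. Srf had means of 4.72, 4.76 and 4.24 in control liver, Scd2f/f TAL and Scd2f/f;CC TAL. Its coactivators Mkl1 and Mkl2, the myocardin-related transcription factors, had log2 ratios of 0.26 and 0.43 in the first comparison and -0.32 and -0.24 in the second. Tead1 had means of 9.96, 9.24 and 6.13, lowest in Scd2f/f;CC TAL. Yap1 had means of 41.2, 32.2 and 34.4, with log2 ratios of -0.36 in the first comparison and 0.10 in the second. Wwtr1, which encodes the related coactivator TAZ, had means of 16.7, 25 and 20.1, highest in Scd2f/f TAL.

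**Figure D4:**
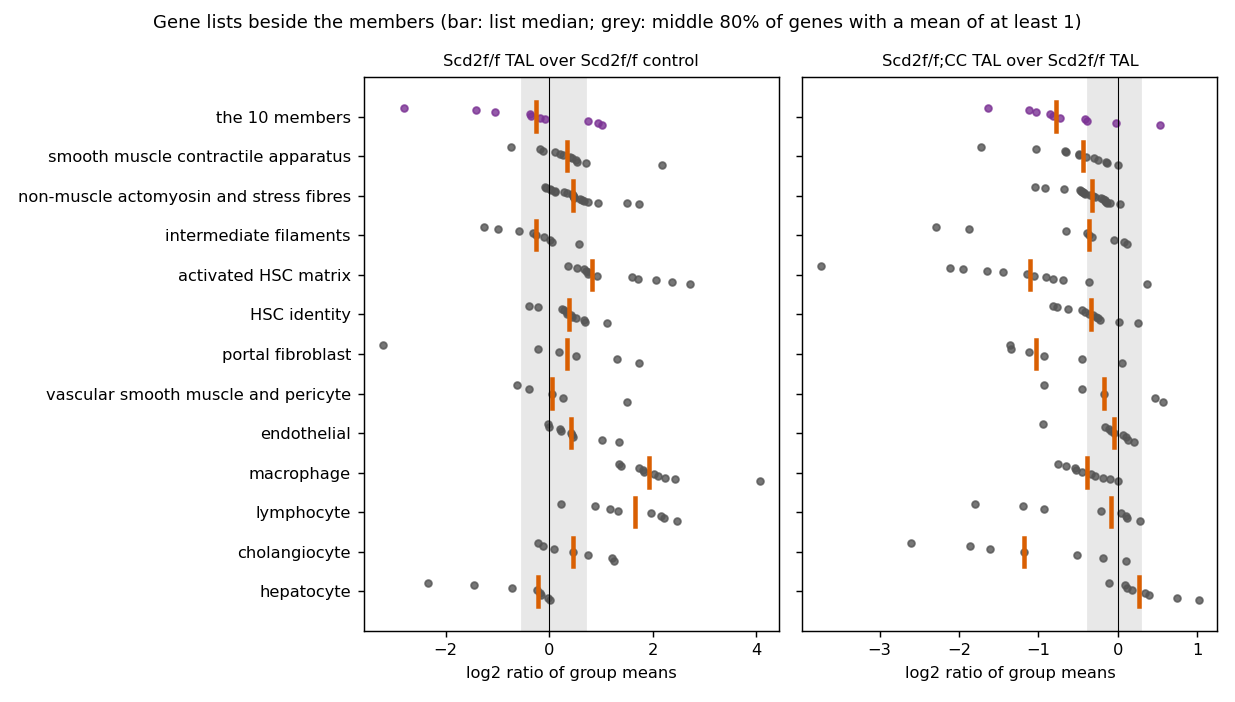
Log2 ratios of the authors' group means for each gene (points) of the 10 contractile and cytoskeletal genes (purple) and of 12 other lists (grey), with list medians as orange bars and the middle 80% of genes averaging 1 or more as a grey band. In the left panel the macrophage list has a median of 1.93 while the 10 genes have -0.26, and in the right panel the 10 genes have -0.77, the activated HSC matrix list -1.10 and the endothelial list -0.04.

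Under the regimen, the matrix genes of aHSC did not parallel the muscle-type genes among the 10 contractile and cytoskeletal genes. Of the 12 further smooth muscle contractile genes, however, 9 were also higher in Scd2f/f TAL than in control liver. All 12 matrix genes listed had a higher mean in Scd2f/f TAL than in control liver, with a median log2 ratio of 0.83. Among them 5 were past 2-fold, against 9.37% of all genes. Of the 10 averaging 1 or more, 3 were past 2-fold, against 6.4% of such genes. Col1a1 had means of 4.69, 19.6 and 4.51 in control liver, Scd2f/f TAL and Scd2f/f;CC TAL, and Col3a1 means of 19.3, 58.6 and 21.6, whereas Acta2 had 1.27, 1.20 and 0.388. In Scd2f/f;CC TAL 11 of the 12 matrix genes had a lower mean than in Scd2f/f TAL, with a median of -1.10 and 7 past 2-fold, against 4.07% of all genes. The exception was Fn1, the fibronectin gene that hepatocytes also express, with means of 1280 and 1660. The 12 genes of HSC identity differed less. Their median log2 ratio was 0.38 in the first comparison and -0.34 in the second, and their summed means were 190.4, 241 and 201. Lrat, which stores vitamin A as retinyl ester, had means of 15, 19 and 16, and Reln, the most abundant, 73, 89.2 and 71.6.

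Markers of other cells that express these genes were set beside them. For vascular smooth muscle and pericytes 5 of 10 listed genes were found, the calcium-store regulator Pln and the receptor Notch3 among them, with summed means of 6.24, 8.22 and 6.83 in control liver, Scd2f/f TAL and Scd2f/f;CC TAL. Pln had means of 1.63, 1.25 and 1.86, highest in Scd2f/f;CC TAL and lowest in Scd2f/f TAL, whereas Notch3 had 1.21, 1.25 and 0.92. The most abundant of this list was Mustn1, with means of 1.16, 3.30 and 1.74. Mcam had 1.72, 2.08 and 1.85, and Rgs4 had 0.515, 0.335 and 0.466. The median log2 ratio of the 5 genes was 0.05 in the first comparison, with 3 above 0 and 2 below. In the second it was -0.17, with 2 above 0 and 3 below. Portal fibroblast markers, 6 found of 8, summed to 5.35, 6.66 and 3.4, with Fbln2, the most abundant, at 1.27, 1.45 and 0.76. This list was mixed. Thy1 and Eln, a surface glycoprotein and elastin, had means of 0.335 and 0.561 in control liver and 1.11 and 1.4 in Scd2f/f TAL, whereas Msln, which encodes mesothelin, had 0.796 and 0.0853 and Cd34 had 1.42 and 1.23. In Scd2f/f;CC TAL the means were 0.511 for Thy1, 0.546 for Eln, 0.0887 for Msln and 0.485 for Cd34. None of the genes found was at the lowest value of its column. The part of vessels or portal tracts in the sampled tissue in the differences of Myh11, Cnn1 and Tagln was not tested.

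Leukocyte markers were higher in the same group as Vim, Tagln2 and Cnn2. All 10 macrophage markers were higher in Scd2f/f TAL than in control liver and past 2-fold, where 9.37% of all genes were, with summed means of 99.2 and 372, and the sum in Scd2f/f;CC TAL was 288. Lyz2, the most abundant, had means of 24.9, 107 and 63.7, and the Kupffer cell lectin Clec4f had 27.3, 71.2 and 71.7. In the second comparison 9 of the 10 macrophage markers were below 0 and only Clec4f above, with a median log2 ratio of -0.39. Past 2-fold on the lower side were 0 of the 10, against 4.07% of all genes. All 8 lymphocyte markers were above 0 in the first comparison and had means under 1 over the groups, with sums of 1.71, 5.29 and 3.67 and Cd4 as the most abundant. In the second comparison 4 of the 8 were above 0 and 4 below, with a median log2 ratio of -0.09. Past 2-fold on the lower side there were 2 of the 8, Cd3e and Cd8a, against 4.07% of all genes. The 9 endothelial markers, led by Ptprb, summed to 195, 235 and 243, with a median log2 ratio of -0.04 in the second comparison. Cholangiocyte markers, 7 found of 8 and led by Spp1, summed to 79.9, 81.7 and 45.4. Their median log2 ratio was 0.46 in the first comparison and -1.18 in the second, where Acta2 had -1.63. In the second, 4 of the 7 were past 2-fold on the lower side, against 4.07% of all genes. Over the 5 cholangiocyte markers averaging 1 or more, the medians were 0.08 and -0.51. In the second comparison 2 of these 5 were past 2-fold on the lower side, against 1.54% of such genes. The part of any of these cells in the differences of the contractile and cytoskeletal genes was not tested. The 8 hepatocyte markers were abundant, as the tissue label requires, led by Alb with means of 21300, 20900 and 22700, but 7 of the 8 had a lower mean in Scd2f/f TAL than in control liver and 7 of the 8 a higher one in Scd2f/f;CC TAL than in Scd2f/f TAL. Past 2-fold on the lower side in the first comparison were 2 of the 8, against 4.69% of all genes. They were Serpina1e, a secreted protease inhibitor, with means of 3990, 784 and 1590, and Tat, an enzyme of tyrosine breakdown, with means of 499, 181 and 305.

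The genes whose 3 means ran most like those of a contractile gene were sought among genes averaging 1 or more as those with the smallest distance in the plane of the log2 ratios of both comparisons. Nearest to Acta2 were Myc, at a distance of 0.02, Spp1 at 0.13, Epcam at 0.24, Gabra3 at 0.26 and Cd207 at 0.27. Spp1 and Epcam also belong to the cholangiocyte list above. Myc, a growth-promoting transcription factor, had means of 6.84, 6.41 and 2.05 in control liver, Scd2f/f TAL and Scd2f/f;CC TAL. Nearest to Tagln were Prss8 at 0.12, Gm7334 at 0.16, Syt12 at 0.30, Ddit4 at 0.34 and Zbtb16 at 0.39. Nearest to Myh11 were Atxn1 at 0.03, the pseudogenes Gm8121 and Rps13-ps2 at 0.05, Hnf4aos at 0.06 and Serpina3m at 0.07. With 3 values per gene, likeness of this kind is a description only.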

How the data were processed

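Polyadenylated RNA was sequenced from liver of 9 mice, 3 per group. Per the study's methods, the authors quantified aligned reads on Gencode M3 with the Partek E/M method and applied upper quartile normalization. The submitters' processing notes name STAR 2.6.1, Partek 6 and mm10. The deposited signal used here is a least-squares mean of normalized counts per group, written with 3 significant digits by the authors. How the mean was formed (arithmetic or on a log scale) is not given in the sources used here. The deposited columns of ratios, fold changes, p-values and FDR hold the authors' own comparisons and were not used. Ratios were computed anew from the means, without a pseudocount. A gene was counted past the limit at a ratio of at least 2-fold in either direction, beside all genes with a mean over the groups of at least 1. With group means alone, no test was run, and the number of mice limits the precision. Exon lengths were unions of GENCODE M21 exons on GRCm38, for 16169 genes matched by symbol, chromosome and strand, 99.98% of which overlapped the gene of that name. Nearest genes were the 5 at the smallest Euclidean distance, for Acta2, Tagln and Myh11. The genes, lists and pairs were chosen with earlier results of these data known. Genes named are the 10 genes, Scd2, list genes that were abundant or differed most or have a role in the pathway, and the nearest genes. Steps were tested on simulated data. Computation used NumPy 2.4.6, pandas 2.3.3 and Matplotlib 3.10.9 under Python 3.11.15. Alternative fold limits (1.5 and 3), pseudocounts (0.1 and 1), limits on the mean, centring and protein-coding genes alone were tried. A further gene list is not reported here.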

Additional observations from a re-analysis of the deposited data

How the results depend on the processing

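No paired analysis was possible because the deposited table gives group means, and for the same reason no replicate was left out in turn, which are the alternatives not run. No log2 ratio of a contractile or cytoskeletal gene changed sign under centring on the median of genes averaging 1 or more, a median that was 0.03, 0.01 and 0.04 in Scd2f/f TAL over control, Scd2f/f;CC TAL over Scd2f/f TAL and Scd2f/f;CC TAL over control. Their median log2 ratios in these comparisons were -0.24, -0.75 and -0.93 with a pseudocount of 0.1, -0.17, -0.60 and -0.48 with 1, -0.29, -0.78 and -1.0 after centring, and -0.17, -0.81 and -0.90 over those averaging 1 or more. A pseudocount cannot change a sign, and 1 shrinks ratios of low means by construction. Among the 7 of them averaging 1 or more, the counts past the limit were 5 and 5 at 1.5-fold in the first and second comparison. They were 0, 0 and 1 at 3-fold, and 0, 0 and 1 with a pseudocount of 1. Acta2, Myl9 and Cnn1, under that mean, are not in these counts. The counts of all genes below are over the 11784 genes with that mean unless another limit is named. At 1.5-fold the first count held 3 genes on the higher side and 2 on the lower, against 1 and 2 at 2-fold. Without a limit on the mean, an alternative added after seeing the data, the third count was 5. Counts of all genes, from 1095, 257 and 832, were 2523, 851 and 2189 at 1.5-fold, 465, 62 and 287 at 3-fold, 674, 120 and 457 with a pseudocount of 1, 2355, 987 and 1851 without a limit on the mean, and 292, 62 and 252 for genes averaging 10 or more, of which 145, 28 and 128 were on the higher side, against 754, 76 and 531 of the main counts. Protein-coding genes alone, tried for the counts of all genes, and centring moved no total by more than 1.5 times, but centring left 0 of the contractile and cytoskeletal genes past the limit on the higher side in the first comparison in place of 1, Vim.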
